A study of Saccharomyces cerevisiae with 9 samples.

Results

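The members are the 31 genes that encode the enzymes of glycolysis and of the fermentation of pyruvate to ethanol in budding yeast, together with the enzymes that make and degrade fructose 2,6-bisphosphate. They were chosen by name from the pathway, from HXK1 to ADH5, without a threshold on their response. Earlier results of these data were known at that time. All 31 of them were found among the 6942 features of the table, and all had a value on every array. They fall into 13 enzyme steps, of which 9 have 2 or more members here.

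Transcript changes were measured in cultures of the laboratory strain BY4741 in rich YPD medium at 30°C, 30 min after addition of NaCl to 0.7 M. The ckb12 strain, with 2 arrays, lacks CKB1 and CKB2, which encode the regulatory subunits of the protein kinase CK2, and the wild type (WT), with 7 arrays, carries both. On each array, cDNA from a salt-treated culture was hybridised together with cDNA from the unstressed culture of the same strain, so that every value is a log2 ratio of treated over unstressed. A value of 1 is a doubling relative to the median feature of that array, and it gives the size of a change and not the level of a transcript. ckb12 replicate 1 and WT replicate 8 carry the set letter A, ckb12 replicate 2 and WT replicate 9 carry B, WT replicates 10 to 12 carry the letters C to E, and WT replicates 1 and 2 have no letter. How many independent ckb12 clones were grown is not given in the sources used here. RNA came from whole cultures, so a change in every cell and a change in some of the cells cannot be told apart.

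Glycolysis turns glucose into pyruvate with a net gain of ATP, and yeast then decarboxylates pyruvate and reduces the acetaldehyde to ethanol, which restores the NAD+ that glycolysis uses. Many of its steps are served by isoenzymes encoded by duplicated genes, usually a major form that is abundant in growth on glucose and a minor form that is low on glucose and known to rise on poor carbon sources or under stress. Intermediates of the pathway also feed the synthesis of glycerol, the osmolyte of salt-stressed yeast, and of the storage sugar trehalose.

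Single arrays held between 6205 and 6812 values, and their SD within an array lay between 1.22 and 1.41, with the highest SD on WT replicate 12. Pairs of WT arrays correlated across features at r = 0.884 to 0.977. For CKB1 the log2 ratio was 0.97 and 0.44 on the ckb12 arrays and between -0.88 and -0.38 in WT. For CKB2 it was 0.82 and 0.71 in ckb12 and between -0.47 and 0.10 in WT. A ratio within a strain that lacks the gene holds no transcript level, so these values check the labels only in that the strains differ. One label field of WT replicate 12 adds the word mutant, whereas its title and genotype give WT, and it was kept as WT.

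In WT, salt changed 29 of the 31 genes (limma, Benjamini-Hochberg adjusted p below 0.05). Of these, 8 rose, by 1.99 to 4.36 on the log2 scale, and 21 fell, with means from -1.92 to -0.23. Over all 6129 features tested, 77.1% were called, 36.5% higher and 40.6% lower, so the share of members that rose (25.8%) lay below that of all features and the share that fell (67.7%) lay above it. The median of the members was -0.66, against -0.04 over all features. By sign alone, 7 members were above 0 on all 7 WT arrays, where 30.8% of all features were, and 20 were below 0 on all of them, where 36.5% of all features were. Rises were larger than falls, in that all 8 genes called higher averaged at least 1 in size and 9 of the 21 genes called lower did. Over all features, 770 of the 2235 called higher and 991 of the 2490 called lower did. The share among the falls of the members was thus near that of all features. In 4 of the 9 steps with several members, at least 1 gene rose and at least 1 fell, while the 4 steps with a single gene all fell, with means from -1.14 to -0.64.

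**Figure D1:**
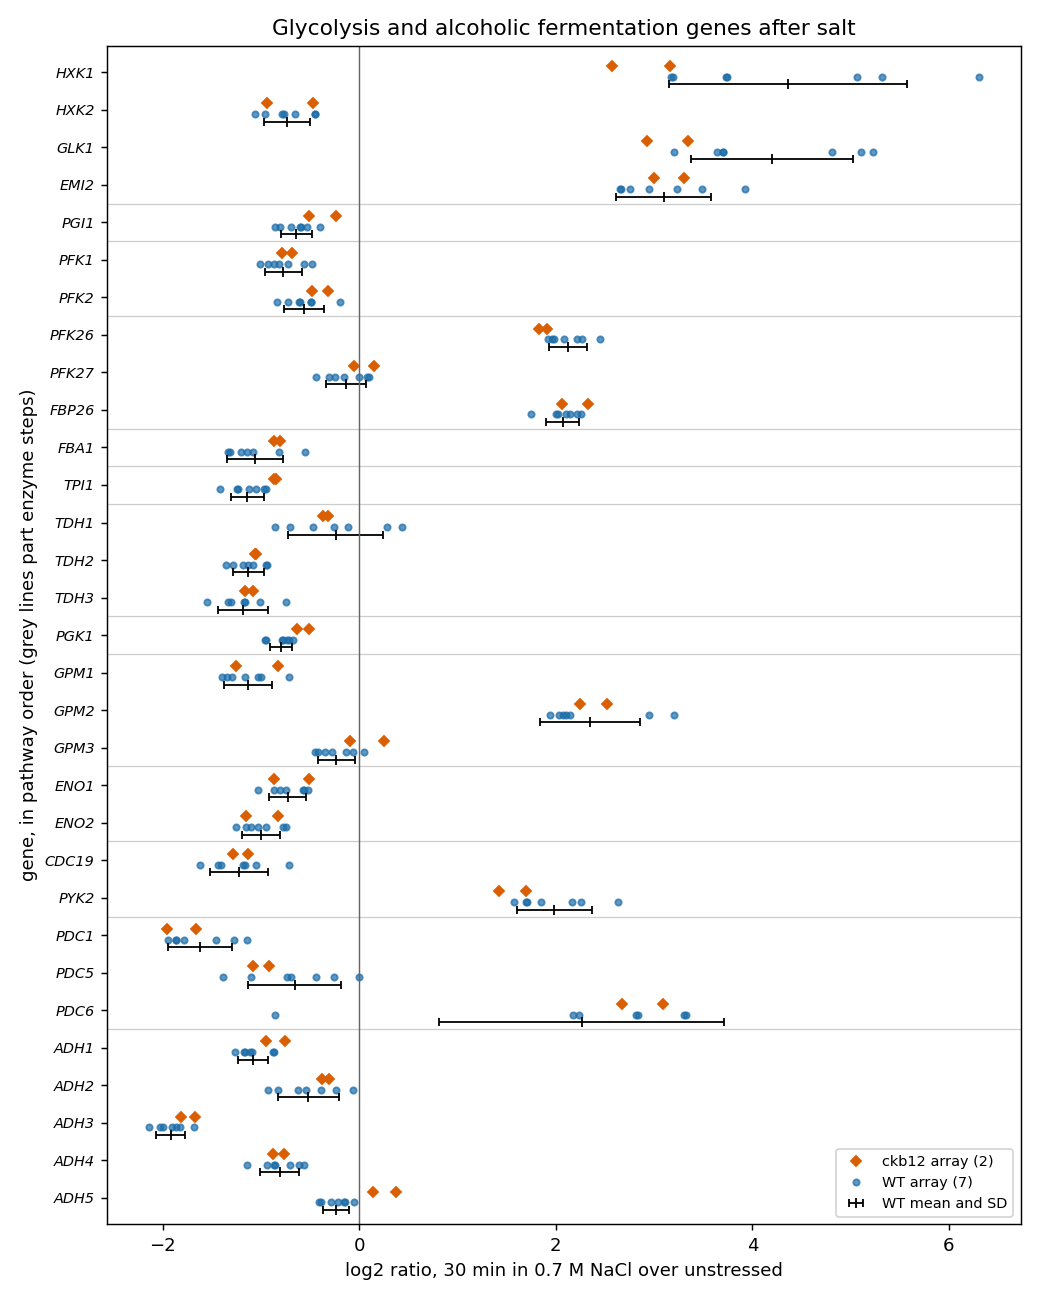
Log2 ratios of the 31 genes, treated over unstressed, with 1 row per gene in pathway order, ckb12 arrays as diamonds above WT arrays as circles, and the WT mean with its SD (n = 7) below them. HXK1, GLK1, EMI2, PFK26, FBP26, GPM2 and PYK2 lie above 0 on every array, PDC6 on all but WT replicate 2, and most other genes lie below 0.

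The first step, phosphorylation of glucose, held the largest rises of the pathway and a fall beside them. HXK1 (YFR053C), the hexokinase that is low on glucose, had ratios of 2.57 and 3.17 in ckb12, against 5.32, 6.31, 3.20, 3.17, 3.73, 3.74 and 5.06 in WT replicates 1, 2, 8, 9, 10, 11 and 12. The WT mean was 4.36 ± 1.21 (SD, n = 7), a 20.5-fold rise that ranked 49 of 6129 features (adjusted p = 1.2e-06). WT replicates 1, 2 and 12 were the high ones, and both ckb12 arrays lay below every WT array by a narrow margin.

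GLK1 (YCL040W), the glucokinase, had 3.34 and 2.93 in ckb12, against 5.10, 5.23, 3.70, 3.64, 3.20, 3.70 and 4.81 in WT, in the same order of replicates. Its WT mean of 4.20 ± 0.82 (SD, n = 7) was an 18.4-fold rise (adjusted p = 8.6e-08). The same 3 WT arrays were the highest, and the strains overlapped. In the R64 annotation GLK1 overlaps YCL042W, the only such overlap among the members, so signal of the pair may not be separate. EMI2 (YDR516C), a glucokinase-like protein and the duplicate of GLK1, had 2.998 and 3.31 in ckb12, against 3.23, 3.92, 2.66, 2.76, 2.95, 2.66 and 3.49 in WT (mean 3.10 ± 0.48, SD, n = 7). Its rise was 8.55-fold, with overlapping strains.

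HXK2 (YGL253W) encodes the main hexokinase on glucose, a protein that also takes part in glucose repression, and it fell. Its ratios were -0.94 and -0.47 in ckb12, against a WT range of -1.06 to -0.45 with a median of -0.77. The difference between HXK1 and HXK2 on one WT array averaged 5.09 ± 1.06 (SD, n = 7), so that the ratio of HXK1 to HXK2 transcript changed by 34.1-fold. GLK1 exceeded HXK2 by 4.93 ± 0.71 and EMI2 exceeded it by 3.83 ± 0.31, each on 7 of 7 arrays. HXK1 and GLK1 were not distinguished from each other, with a difference of 0.16 ± 0.56 (exact two-sided sign-flip test, p = 0.453, adjusted p = 0.468).

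Genes of the same step were compared in this way in 31 pairs within 9 steps. Each pair had an exact two-sided sign-flip permutation test over the 7 WT arrays, with adjustment over the pairs. Most pairs are isoenzymes. PFK1 and PFK2 are subunits of the same enzyme, and FBP26 is a phosphatase set against the kinases PFK26 and PFK27. The smallest p that 7 arrays allow is 0.0156. Of the 31 pairs, 26 were called, with adjusted p-values from 0.0202 upward, and 5 were not. The share of calls over pairs of other genes was not computed, so whether 26 of 31 is more than for other genes is not known. Each pair compares changes on one array, and pairs that share a gene are not independent. Whether the tiles of close duplicates, such as TDH2 and TDH3 or ENO1 and ENO2, share signal was not tested, so near-equal values of such pairs are uncertain.

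**Figure D2:**
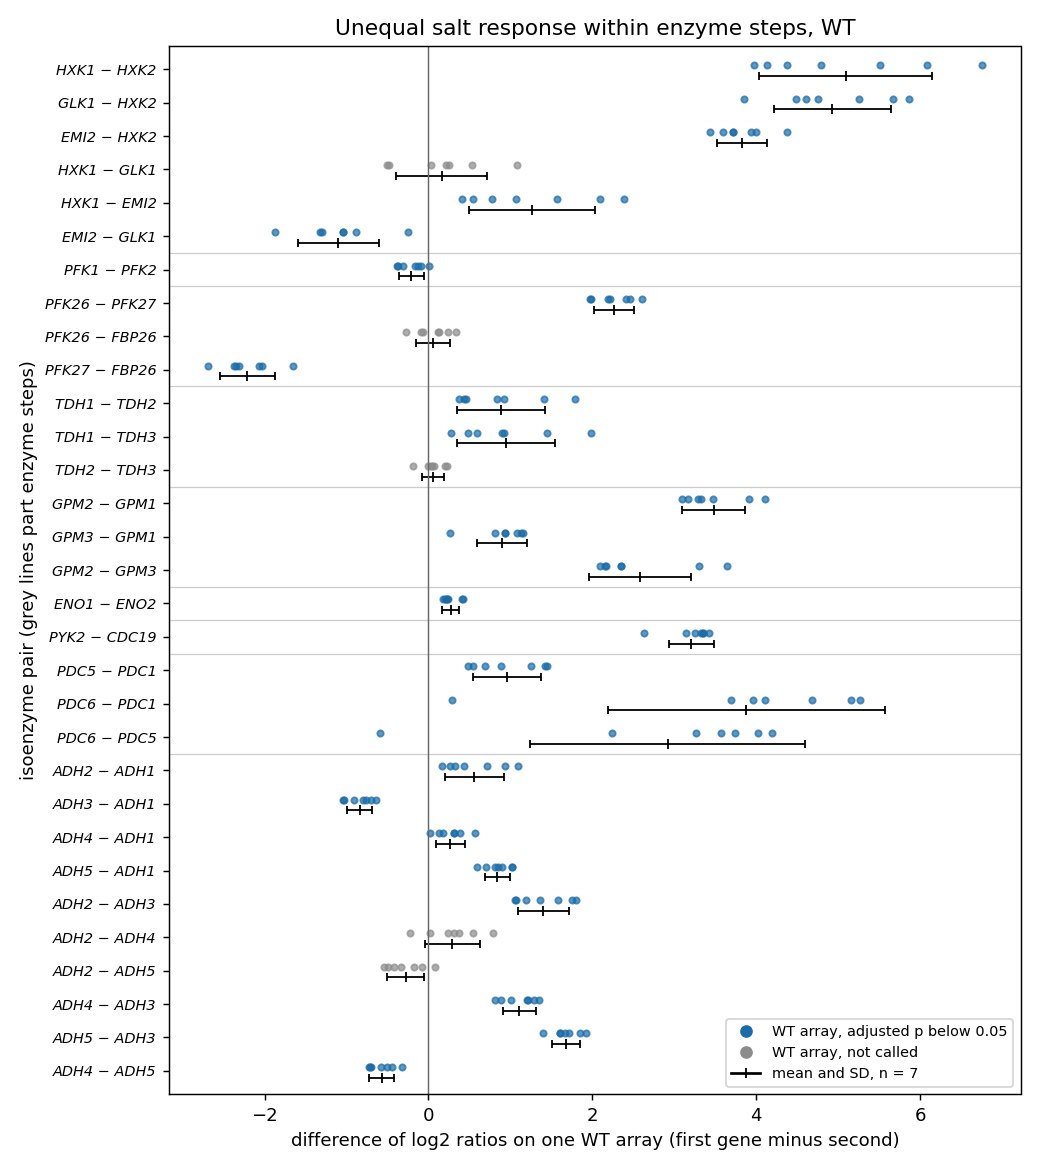
Difference of the log2 ratios of 2 genes of the same enzyme step on the same WT array, first gene minus second. Each array is 1 point, and the mean is given with its SD (n = 7). Blue marks the 26 pairs called by the exact sign-flip test and grey the 5 that were not. The widest separations were HXK1 over HXK2 (5.09), GLK1 over HXK2 (4.93) and PDC6 over PDC1 (3.88).

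The upper part of the pathway after the hexose kinases fell by moderate amounts. PGI1 (YBR196C), phosphoglucose isomerase, had -0.51 and -0.24 in ckb12, against -0.85 to -0.40 in WT (median -0.60). The subunits of phosphofructokinase, the main control point of glycolysis, fell together. PFK1 (YGR240C), the alpha subunit, had -0.68 and -0.79 in ckb12, against -1.005 to -0.48 in WT, and PFK2 (YMR205C), the beta subunit, had -0.32 and -0.48 in ckb12, against -0.84 to -0.19 in WT. PFK1 fell more than PFK2 by a small margin, -0.21 ± 0.15 (SD, n = 7, adjusted p = 0.0373 by the exact sign-flip test), with the margin in this direction on 6 of 7 arrays. That call was lost in 6 of the 7 comparisons that left out 1 array, in which 6 arrays allow no smaller p than 0.0312.

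Of the 3 genes for enzymes of fructose 2,6-bisphosphate, the activator of phosphofructokinase, 2 rose and 1 was not called. PFK26 (YIL107C), a kinase that makes the activator, had 1.83 and 1.91 in ckb12, against 2.27, 2.45, 1.96, 1.92, 1.98, 2.22 and 2.09 in WT (mean 2.13 ± 0.20, SD, n = 7). FBP26 (YJL155C), the phosphatase that degrades it, had 2.06 and 2.33 in ckb12, against 2.14, 2.22, 2.03, 2.005, 2.26, 2.10 and 1.75 in WT (mean 2.07 ± 0.17). PFK26 rose 4.37-fold and FBP26 4.20-fold, with a difference of 0.05 ± 0.21 and an adjusted p of 0.516 by the exact sign-flip test. FBP26 had the smallest adjusted p of all members in WT (2.2e-09).

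PFK27 (YOL136C), the second kinase of the activator, did not pass the test. It had -0.05 and 0.16 in ckb12, against -0.43 to 0.10 in WT, with 5 of 7 WT arrays below 0 (mean -0.14, 95% interval -0.32 to 0.04, adjusted p = 0.142 in limma). PFK26 exceeded PFK27 by 2.26 ± 0.24 on the WT arrays and did so on 7 of 7.

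The 3 single-gene steps of the middle of the pathway fell on every array. FBA1 (YKL060C), aldolase, had -0.81 and -0.87 in ckb12, against -1.34 to -0.55 in WT (median -1.14). TPI1 (YDR050C), triose phosphate isomerase, had -0.86 and -0.85 in ckb12, against -1.24, -0.95, -1.12, -1.05, -0.97, -1.41 and -1.23 in WT, a 2.20-fold fall. PGK1 (YCR012W), phosphoglycerate kinase, had -0.51 and -0.63 in ckb12, against -0.96 to -0.68 in WT (median -0.78). For TPI1 and PGK1, but not FBA1, both ckb12 arrays fell less than every WT array.

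Glyceraldehyde 3-phosphate dehydrogenase is encoded by 3 genes, of which TDH3 is the major one on glucose. TDH3 (YGR192C) had -1.17 and -1.08 in ckb12, against -1.17, -0.74, -1.55, -1.16, -1.01, -1.33 and -1.30 in WT (mean -1.18 ± 0.26, SD, n = 7). TDH2 (YJR009C) had -1.04 and -1.06 in ckb12, against -1.35 to -0.93 in WT. They were not distinguished from each other, with a difference of 0.05 ± 0.14 (exact sign-flip test, adjusted p = 0.301).

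TDH1 (YJL052W), the minor form, stood apart. It had -0.37 and -0.31 in ckb12, against -0.25, -0.47, 0.44, 0.28, -0.11, -0.86 and -0.70 in WT, a mean of -0.24 ± 0.48 that did not pass the test (95% interval -0.58 to 0.10, adjusted p = 0.173 in limma). WT replicates 8 and 9 were the only WT arrays above 0, whereas the ckb12 arrays of the same sets were below 0. TDH1 exceeded TDH2 by 0.89 ± 0.54 and TDH3 by 0.94 ± 0.60, each on 7 of 7 WT arrays. Without WT replicate 8, TDH1 was called lower in WT (-0.35, adjusted p = 0.0468).

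Phosphoglycerate mutase showed opposite changes of 3 related genes. GPM1 (YKL152C), which encodes the active enzyme, had -1.25 and -0.83 in ckb12, against -1.16, -0.71, -1.29, -1.40, -0.99, -1.03 and -1.34 in WT (mean -1.13 ± 0.24, SD, n = 7). GPM2 (YDL021W), a homologue thought to have little or no activity, had 2.25 and 2.52 in ckb12, against 2.95, 3.20, 2.04, 2.07, 2.10, 2.14 and 1.94 in WT (mean 2.35 ± 0.51). WT replicates 1 and 2 were the high arrays for GPM2, and the strains overlapped. The gap between GPM2 and GPM1 was 3.48 ± 0.38, or 11.2-fold.

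GPM3 (YOL056W), the other homologue of this kind, moved little. It had -0.09 and 0.26 in ckb12, against -0.44 to 0.05 in WT, and its WT mean of -0.23 ± 0.19 was the smallest change among the called members (adjusted p = 0.0189). That call was lost without WT replicate 1 or without WT replicate 2 (adjusted p = 0.052 in each case), and with the 5 lettered arrays alone (0.134).

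The enolase genes fell together and by unequal amounts. ENO1 (YGR254W) had -0.51 and -0.87 in ckb12, against -1.03 to -0.52 in WT, and ENO2 (YHR174W), the form induced by glucose, had -0.83 and -1.15 in ckb12, against -1.25 to -0.74 in WT. ENO1 fell less than ENO2 on 7 of 7 WT arrays, by 0.27 ± 0.10 (adjusted p = 0.0202, exact sign-flip test), the smallest SD of the pairs.

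Pyruvate kinase, the last step of glycolysis, has 2 genes, of which 1 rose and 1 fell. CDC19 (YAL038W), the major form, had -1.13 and -1.28 in ckb12, against -1.18, -0.71, -1.44, -1.62, -1.05, -1.40 and -1.16 in WT (mean -1.22 ± 0.30, SD, n = 7). PYK2 (YOR347C), a form that is low on glucose and does not need activation by fructose 1,6-bisphosphate, had 1.70 and 1.42 in ckb12, against 2.17, 2.63, 1.71, 1.70, 1.58, 1.85 and 2.26 in WT (mean 1.99 ± 0.38). PYK2 exceeded CDC19 by 3.21 ± 0.27, or 9.25-fold, on 7 of 7 arrays.

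Pyruvate decarboxylase, which commits pyruvate to ethanol, held the second largest fall and the most variable rise. PDC1 (YLR044C), the major form, had -1.66 and -1.95 in ckb12, against -1.45, -1.14, -1.94, -1.86, -1.79, -1.87 and -1.27 in WT, a 3.07-fold fall (mean -1.62 ± 0.32, SD, n = 7). PDC5 (YLR134W), the second form, had -0.91 and -1.08 in ckb12, against a WT range of -1.38 to -0.0026 (mean -0.66 ± 0.48). PDC5 fell less than PDC1 on 7 of 7 WT arrays, by 0.96 ± 0.41.

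PDC6 (YGR087C), a minor form known for its induction under sulphur limitation, had 3.09 and 2.67 in ckb12, against 2.24, -0.86, 3.32, 3.30, 2.17, 2.82 and 2.84 in WT. It rose in WT (mean 2.26 ± 1.45, SD, n = 7, adjusted p = 0.00069) on 6 of 7 arrays, and WT replicate 2 lay on the other side of 0. Its SD ranked 9 of 6129 features, and that of HXK1 ranked 19, while the median SD of the members was 0.21 and that of all features 0.23. PDC6 exceeded PDC1 by 3.88 ± 1.69 on 7 of 7 arrays, although on WT replicate 2 by 0.29.

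The alcohol dehydrogenase genes all fell in WT, by unequal amounts. ADH3 (YMR083W), the mitochondrial form, had the largest fall of the 31 genes, with -1.81 and -1.67 in ckb12, against -2.14, -1.996, -1.82, -1.87, -1.68, -2.02 and -1.90 in WT (mean -1.92 ± 0.15, SD, n = 7, 3.78-fold lower). ADH1 (YOL086C), the main ethanol-forming enzyme, had -0.76 and -0.95 in ckb12, against -1.26 to -0.86 in WT (median -1.11). ADH3 fell more than ADH1 on 7 of 7 WT arrays, by a difference of -0.84 ± 0.15.

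ADH2 (YMR303C), the glucose-repressed enzyme that oxidises ethanol, had -0.31 and -0.38 in ckb12, against -0.93 to -0.07 in WT. ADH4 (YGL256W), an enzyme unrelated in sequence to the others, had -0.76 and -0.88 in ckb12, against -1.14 to -0.56 in WT. ADH2 was not separated from ADH4 or from ADH5, each with an adjusted p of 0.0519 by the exact sign-flip test. The exact test called ADH2 above ADH4 without WT replicate 2 (adjusted p = 0.0373) and ADH2 below ADH5 without WT replicate 9 (adjusted p = 0.0388).

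ADH5 (YBR145W), a minor cytosolic form, had 0.14 and 0.37 in ckb12, against -0.22, -0.39, -0.16, -0.15, -0.28, -0.41 and -0.05 in WT. It was the only member below 0 on every WT array and above 0 on both ckb12 arrays. Its WT mean was -0.24 ± 0.13 (SD, n = 7, adjusted p = 0.0076), and its ckb12 mean of 0.25 ± 0.16 (n = 2) did not pass the test against 0 (adjusted p = 0.0859).

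The response of ckb12 itself included 26 of the 31 genes, 8 higher and 18 lower, beside 63.04% of all features called, 27.4% higher and 35.7% lower. The 8 genes called higher in ckb12 were the 8 called higher in WT. PFK27, TDH1, GPM3, ADH2 and ADH5 were not called in ckb12. The mean of a member had the same sign in ckb12 and in WT for 28 genes, and the other 3 were PFK27, GPM3 and ADH5. With 2 arrays, the ckb12 calls of HXK2, PGI1, PFK2, PDC5, PDC6 and ENO1 were lost when 1 or the other ckb12 array was left out.

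For the difference between the strains, ckb12 was set against the WT array of the same set, with the set letter as a block. None of the 31 genes was called in limma, where 1 of 6600 features was (0.0152%). At an unadjusted p below 0.05 there were 5 of 31, near the share of all features (16.6%), with EMI2, FBA1 and ADH5 higher in ckb12 and GLK1 and TDH1 lower. The smallest adjusted p was 0.145, for TDH1, at -0.80 in set A and -0.59 in set B (mean -0.70, 95% interval -1.09 to -0.31). This fit has 1 residual degree of freedom, so the interval rests mostly on the spread that limma estimates across all features. When only features with ORF-style names were tested, TDH1 was called (adjusted p = 0.017). Its WT arrays in these sets, replicates 8 and 9, were the only WT arrays above 0 for TDH1. Against all WT arrays its difference was -0.099 (adjusted p = 0.924, limma), with both ckb12 arrays inside the WT range. In both sets, 17 members were higher in ckb12 and 9 were lower, and 5 differed in sign between the sets. Each set holds 1 array of each strain. The same division over all features was not computed, so whether the members differ from them in this is not known.

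Against all 7 WT arrays, again none of the 31 genes was called, where 1.14% of 6129 features were. ADH5 had the smallest adjusted p (0.112), with a difference of 0.49 (95% interval 0.19 to 0.79), and was the only member at an unadjusted p below 0.05, where 15.3% of all features were. The intervals of HXK1 (-3.13 to 0.15) and GLK1 (-2.19 to 0.06) were wide and included 0. By range, TPI1, PGK1 and ADH5 lay above all WT arrays on both ckb12 arrays, 3 of 31, where 5.32% of all features did. HXK1 and PFK26 lay below all WT arrays, 2 of 31, where 12.04% of all features did. The paired and the 7-array comparisons share the ckb12 arrays and WT replicates 8 and 9.

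**Figure D3:**
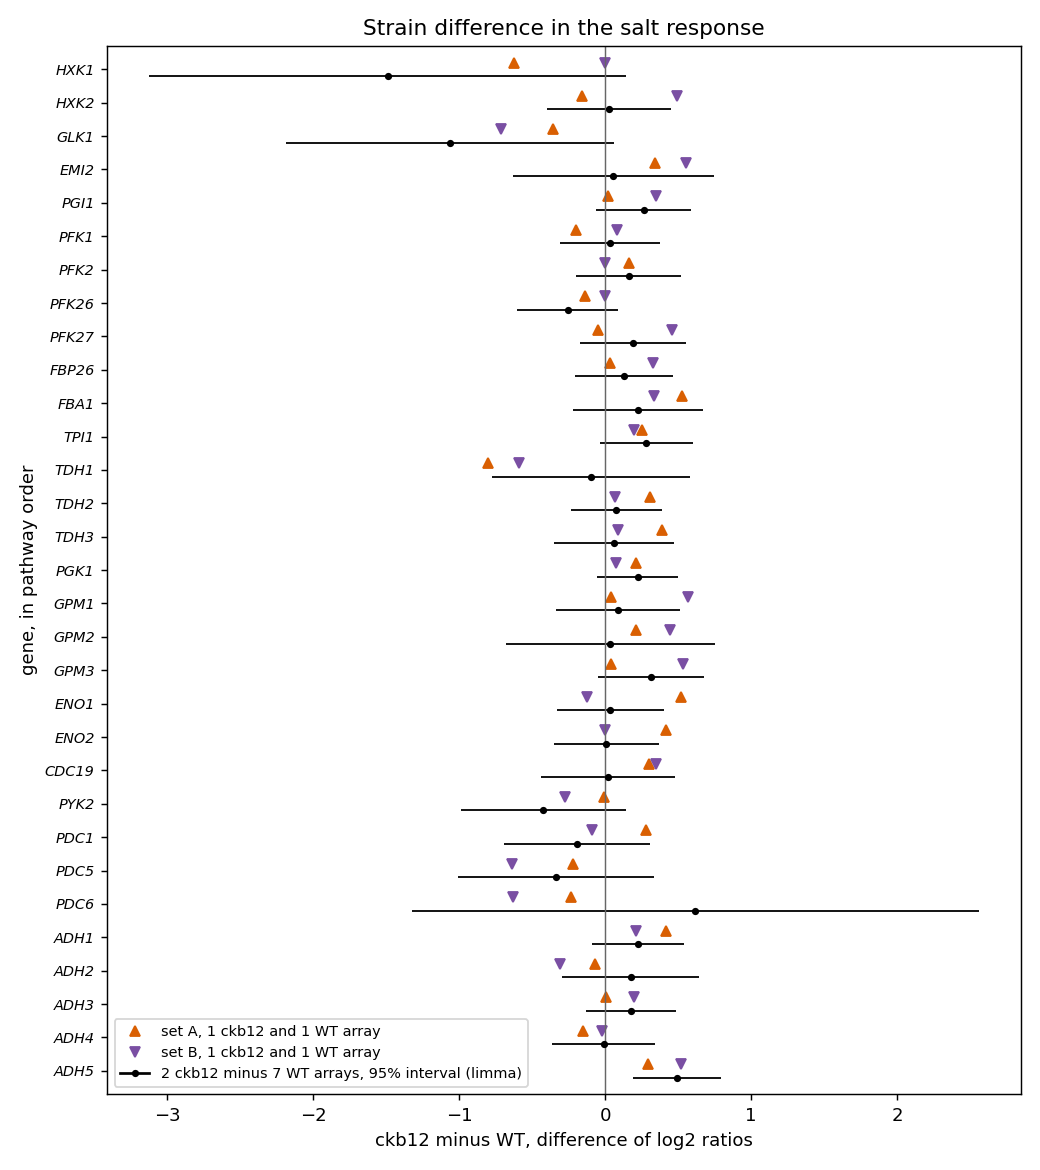
ckb12 minus WT for each gene, with the difference in set A and in set B as triangles and the difference of 2 ckb12 arrays from 7 WT arrays as a circle with its 95% interval from limma. The interval of ADH5 (0.19 to 0.79) is the only one that leaves out 0, and those of HXK1 and PDC6 are the widest.

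Within enzyme steps, 5 of the 31 differences between genes did not overlap between the strains, 1 above and 4 below WT. Of single features, 5.32% lay above and 12.04% below all WT arrays, and the share over other gene pairs was not computed. HXK1 and ADH5 recur among the 5, so these differences are not independent. The gap between ADH5 and ADH3 was wider in ckb12 (1.95 and 2.04) than on any WT array (1.40 to 1.92). That between HXK1 and HXK2 was narrower in ckb12 (3.51 and 3.63, against 3.98 to 6.75 in WT), as was that between PFK26 and PFK27 (1.88 and 1.76, against 1.97 to 2.602). HXK1 minus EMI2 was below 0 in ckb12 (-0.43 and -0.14) and above 0 in WT (0.41 to 2.38). ADH4 minus ADH5 was -0.90 and -1.25 in ckb12, against -0.72 to -0.32 in WT. Lack of overlap by itself gives the smallest p that 2 against 7 arrays allow (exact two-sided permutation test, p = 0.0556, adjusted p = 0.344 over 31 pairs). The p of the 5 therefore adds nothing to the lack of overlap, and the design cannot reach 0.05.

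Set letters divide the WT arrays into 5 lettered and 2 unlettered ones. GPM2 was lower on the 5 lettered arrays (2.06 ± 0.08, SD) than on the 2 unlettered ones (3.08 ± 0.18), a difference of -1.02 (adjusted p = 0.019, limma), and was the only member called, where 0.457% of all features were. That call was lost without WT replicate 2, 8 or 9 (adjusted p = 0.350, 0.0764 and 0.0714). HXK1 averaged 3.78 ± 0.77 on lettered and 5.81 ± 0.70 on unlettered arrays, and GLK1 averaged 3.81 ± 0.60 on lettered and 5.17 ± 0.09 on unlettered ones, neither called (adjusted p = 0.142 and 0.169). Without WT replicate 12, both were called (adjusted p = 0.0082 and 0.0044). PDC6 averaged 2.89 ± 0.47 on lettered and 0.69 ± 2.19 on unlettered arrays and was not called (adjusted p = 0.227). The low WT replicate 2 is among the unlettered ones. In this comparison 8 members had an unadjusted p below 0.05 in limma, a larger share than the 13.2% of all features. Of these, HXK1, GLK1, EMI2, PFK26, GPM2, PYK2 and PDC5 were lower on lettered arrays and PDC6 was higher.

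WT replicates 1, 2 and 12 were the 3 highest WT arrays for 7 members, HXK1, GLK1, EMI2, ENO1, ENO2, PYK2 and PDC1. The share of all features with this order was not computed, and WT replicate 12 had the highest SD of the arrays. Both ckb12 arrays carry a set letter, so the low HXK1 and GLK1 values of ckb12 stand beside lettered WT arrays at 3.17 to 5.06 and 3.20 to 4.81. Against the WT array of the same set, HXK1 differed by -0.63 in set A and by -0.0015 in set B, and GLK1 by -0.36 in set A and by -0.72 in set B. With the 5 lettered WT arrays alone, again 0 members were called between the strains.

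**Figure D4:**
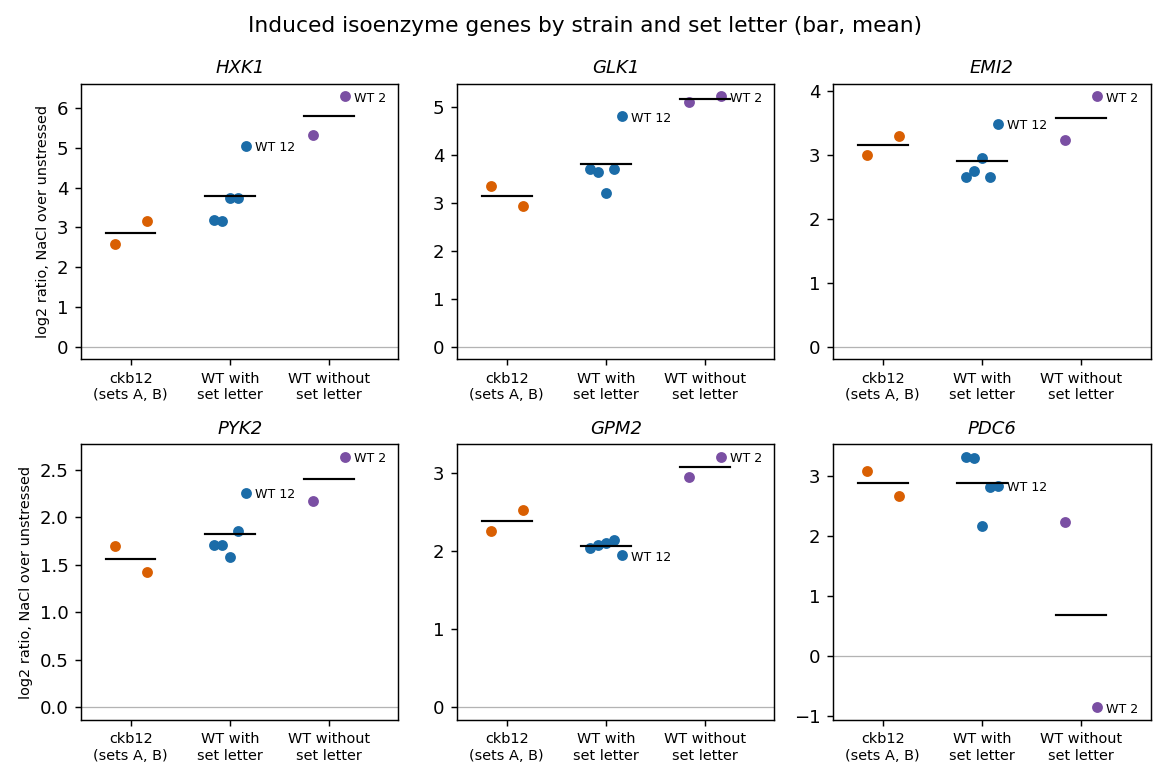
Log2 ratios of 6 induced genes on the ckb12 arrays, on the 5 WT arrays with a set letter and on the 2 without one, with a bar at each mean. HXK1, GLK1 and GPM2 are highest on the unlettered arrays, WT replicate 12 is the lettered array nearest to them for HXK1 and GLK1, and PDC6 on WT replicate 2 is below 0.

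The pentose phosphate pathway, which branches from glucose 6-phosphate and supplies NADPH and pentoses, was measured with 11 genes beside the members. In WT, 5 rose and 6 fell, where 36.5% of all features were called higher and 40.6% lower. In each of the 4 duplicated pairs of the pathway, 1 gene rose and the other fell. TKL2, the minor transketolase, rose by 6.89 ± 0.39 while TKL1, the major one, had -1.37 ± 0.22. NQM1, a transaldolase, rose by 7.11 ± 0.37 and TAL1, the main transaldolase, had -0.95 ± 0.15. GND2, the minor 6-phosphogluconate dehydrogenase, rose by 4.67 ± 0.70 and GND1 had -1.12 ± 0.20, and SOL4, a 6-phosphogluconolactonase, rose by 6.85 ± 0.40 while SOL3 had -0.71 ± 0.23 (SD, n = 7 each). ZWF1, which encodes glucose 6-phosphate dehydrogenase at the branch, rose by 0.46 ± 0.30. None of the 11 was called between the strains.

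Transcription factors known to act on glycolytic genes were measured with 9 genes. Of these, ADR1, an activator of ADH2 and of other glucose-repressed genes, rose in WT (2.06 ± 0.53), and GCR1 (-0.51 ± 0.23), RAP1 (-0.36 ± 0.32) and TYE7 (-0.32 ± 0.23), activators of glycolytic genes, fell. The other 5, GCR2, REB1, ABF1, PDC2 and MIG1, were not called. Over all features, 77.1% were called in WT, so these 9 genes were called less often than features in general. ADH2 itself had a mean of -0.52 ± 0.31 in WT.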

How the data were processed

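RNA of 2 ckb12 and 7 WT cultures was compared before and after salt on 2-colour tiled NimbleGen arrays, 1 array per culture. The authors normalized the signals and deposited log2 ratios, 1 per feature and array. The log2 scale and the direction, treated over unstressed, come from the study's methods and the labels and are not written in the table. The labels give 1 dye orientation for all arrays, whereas the methods mention changed orientation for some samples. How tiles were combined, the background correction and the genome build are not given in the sources used here, and without intensities the number of arrays limits the precision. No column of samples was left unused (0).

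Fits were made in R 4.3.3 with limma 3.58.1 (lmFit, eBayes) on the deposited log2 ratios of features without a missing value in the fit, with Benjamini-Hochberg adjustment over all of them and a threshold of 0.05. The WT response was tested on 7 arrays against 0, the ckb12 response and ckb12 minus all WT on 9 arrays, and ckb12 minus paired WT on 4 arrays with set as a block, as the study's methods pair mutant and WT. The pairing comes from set letters. As a check, after subtraction of its group's mean, each ckb12 array correlated with the WT array of its set at -0.0882 (A) and -0.0152 (B) across features. Pairs of genes of the same step were compared by exact permutation tests. All fits were run on simulated data with independent noise on each array. The mean error of known changes was checked for every fit, and a minimum recovery was required only for the WT response. No limit was set on false calls.

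Members and lists were chosen with earlier results of these data known. All 31 members are described, with values on every array for at least the 6 genes that rose most and the 6 that fell most in WT with 1 sign on all 7 arrays, and other genes are named only from lists of the pentose phosphate pathway, transcription factors and deleted genes, which were written from memory. Symbols and overlapping genes were looked up in RefSeq's gene table (R64). Protein and promoter sequences were not used here. The alternatives were other array scalings, missing values kept, robust eBayes, ORF-style names only, a Storey-type q value, a minimum change of 1, other blocks, a 2 SD rule and leaving out single arrays.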

Additional observations from a re-analysis of the deposited data

Results flagged for a closer look

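Each of the 31 members and 31 differences between genes of a step was examined over the 7 WT arrays for a single array far from the others. This is a check that chance passes in about 1 of 20 groups. PDC6 was far lower on WT replicate 2 (-0.86) than on the other 6 arrays. The differences PDC6 minus PDC1 (0.29) and PDC6 minus PDC5 (-0.60) on the same array follow from that value. GPM3 minus GPM1 was also far lower on WT replicate 2 (0.27), and PYK2 minus CDC19 was far lower on WT replicate 10 (2.63).

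GPM2 differed between WT arrays with and without a set letter by -1.02 (limma, adjusted p = 0.019). ADH5 was above 0 on both ckb12 arrays and below 0 on all 7 WT arrays, with means 0.49 apart. It stands here for its opposite signs, and the limma comparisons of the strains did not call it (adjusted p = 0.291 paired and 0.112 against all WT).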

How the results depend on the processing

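No called value of a member changed sign under any alternative. In WT, the 29 calls became 17 (8 higher, 9 lower) and in ckb12 the 26 became 14 (8 higher, 6 lower) when a mean change of at least 1 was also required, which left 1761 and 1945 of all features. A Storey-type q value added PFK27 and TDH1 in WT and ADH2 and ADH5 in ckb12. Between the strains with paired WT, robust eBayes called 178 features and no member, and ORF-style names alone called 573 features (205 higher, 368 lower) and 1 member, TDH1. The paired fit has 1 residual degree of freedom, so its calls rest mostly on the spread estimated across the features tested. Without the replicate block on the same 4 arrays, 0 features were called. Against all WT, 46 features were called after scaling arrays to an equal median absolute deviation, 17 with lettered WT arrays only and 0 to 142 when single arrays were left out, with no member in any of these. Both ckb12 arrays lay beyond the WT mean by 2 SD for 465 features and 1 member, ADH5. Set as a random replicate block changed no member's call. Blocking by replicate number on WT and ckb12 replicates 1 and 2, which the sets do not pair (deviations correlated at -0.0135 and 0.159), called 90 features (45 higher, 45 lower), with 2 members lower, HXK1 and GLK1. The lettered against unlettered comparison called 3 members after the equal-deviation scaling, 13 features with missing values kept, and 0 to 3 members and 3 to 108 features when single WT arrays were left out. One of these calls, PDC6 higher on lettered arrays without WT replicate 1, sets the lettered arrays against WT replicate 2 alone, on which PDC6 is far from its other values, with the spread taken from the lettered arrays.

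Uncalled differences near 0 have no settled direction. Over all 31 members, the sign changed in 50 of 589 refitted values of ckb12 minus all WT (14 members), 3 of 248 of the paired difference, 14 of 434 of the set-letter difference and 2 of 310 of the ckb12 response. On single ckb12 arrays, the ckb12 response ranged between -0.053 and 0.16 for PFK27 and between -0.094 and 0.26 for GPM3. Of the members described singly against all WT, EMI2 was -0.10 after equal-deviation scaling, -0.43 with replicate number as a replicate block, and between -0.10 and 0.21 when single arrays were left out. TDH1 was 0.024 and FBA1 -0.026 with that replicate block, and TDH1 lay between -0.20 and 0.014 when single arrays were left out. Of the calls between genes of a step, those of PFK1 against PFK2 and PDC6 against PDC5 were each lost in 6 of 7 leave-outs. In these, 6 arrays allow no smaller p than 0.0312 by the exact sign-flip test. ADH2 against ADH4 and ADH2 against ADH5 were each called in 1 leave-out. Where 1 ckb12 array is left out, the other is assumed to vary like WT. Signal over background is unknown for every value.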
